A study of Rattus norvegicus with 15 samples.

Results

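Peptide signalling in the adrenal medulla was followed through 48 genes for neuropeptides, peptide hormones, their receptors and a few accessory proteins, out of the 8621 genes in the deposited tables. Genes were taken by symbol alone, from a list of peptide families that covers tachykinins, opioids, galanin, neuropeptide Y, the PACAP, secretin and calcitonin families, natriuretic peptides, somatostatin, angiotensin and others. They comprised 15 precursors of peptide ligands, 28 receptors, 4 modulators (*Ramp1*, *Ramp3*, *Agtrap*, *Trhde*) and *Avpi1*, which matched by name only and encodes no peptide or receptor. Each table holds only genes that the authors had called different between 2 groups, so every gene described here had passed at least 1 such call. Of the 48 genes, 34 had counts in all 15 samples and 14 in 10 of them.

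RNA-seq had been made from macrodissected adrenal medulla of Sprague Dawley rats (spelled Sprague-Dawely in the labels). Wildtype animals aged 7 to 9.5 months gave normal adrenal medulla (WT, n = 5), MENX animals aged 4 to 5 months gave hyperplastic medulla (HYP, n = 5), and MENX animals aged 7 to 9.5 months gave pheochromocytoma (PCC, n = 5), the tumour of the chromaffin cells. MENX rats carry a homozygous germline frameshift mutation of *Cdkn1b*, which encodes a cell cycle inhibitor. HYP differed from WT in genotype and in age, and these cannot be told apart. PCC differed from HYP in the stage of the lesion and in age, which cannot be told apart either.

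Chromaffin cells store peptides together with catecholamines in dense-core granules and release both on stimulation. The peptides are cut from longer precursors by prohormone convertases, and most act on receptors coupled to G proteins, either on the same cells, on neighbouring cells of the medulla and cortex, or at a distance. The PACAP released by the splanchnic nerve is a well known example, since it drives catecholamine secretion through the receptor encoded by *Adcyap1r1*.

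Library totals ran from 16315018 to 23831269 reads assigned to genes. Levels are given as CPM, the counts scaled for library size on a common scale for the 15 samples, and a gene was called changed at an adjusted p under 0.05 in the quasi-likelihood test of edgeR. Wherever a value follows for each sample, the order is replicate 1 to replicate 5. The summed level of 7 chromaffin markers (*Th*, *Dbh*, *Ddc*, *Slc18a1*, *Slc18a2*, *Phox2a*, *Syp*) was 1727 to 7469 CPM in WT, 8053 to 12867 CPM in HYP and 14795 to 28681 CPM in PCC, whereas that of 9 adrenal cortex markers was 26251 to 58565 CPM, 12685 to 31734 CPM and 893 to 14550.4 CPM, so every group held cortex transcripts. In bulk tissue, fewer cells of a type and less RNA per cell cannot be told apart. On a log2 scale relative to the WT mean, WT replicate 5 lay at -1.46 for the chromaffin list against 0.15 to 0.68 in the other WT samples, and PCC replicates 2 and 4 lay at -4.04 and -5.36 for the cortex list against -2.20 to -1.44 in the other PCC samples. *Cdkn1b* itself was transcribed in every sample, at 45.5 to 71.1 CPM in WT, 81.5 to 126 CPM in HYP and 109 to 176 CPM in PCC, which does not check a frameshift.

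**Figure D1:**
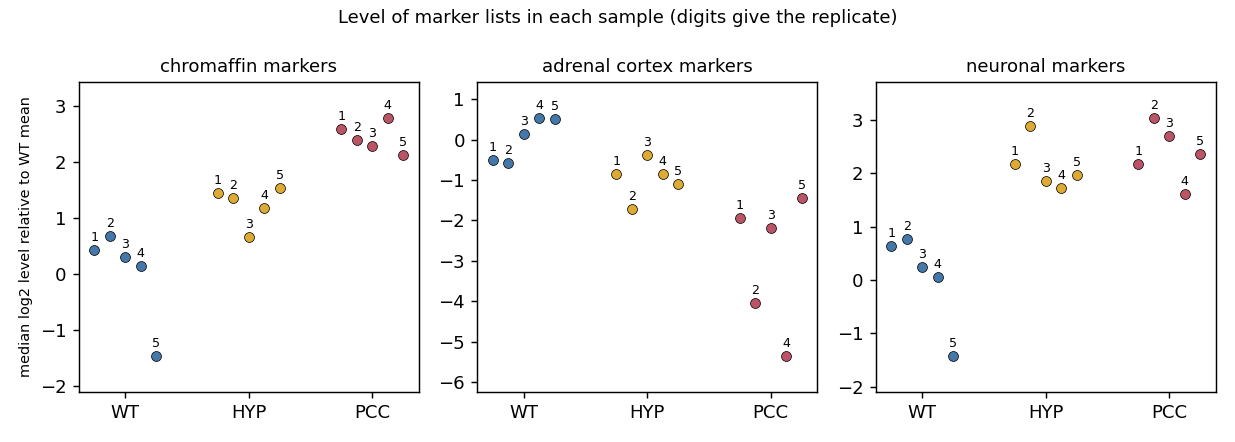
Median log2 level of the chromaffin (7 genes), adrenal cortex (9 genes) and neuronal (7 genes) marker lists in each sample, relative to the mean of WT (y axis, pseudocount 0.5 CPM). Points are samples, digits are replicate numbers; WT replicate 5 lies lowest for chromaffin and neuronal markers, and PCC replicates 2 and 4 lie lowest for cortex markers.

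In PCC against WT, 17 of the 31 peptide genes tested were higher, 7 were lower and 7 were not called. Thus 77.4% were called, beside a background of 81.4% of all 7024 genes tested in the same table (46.6% higher and 34.7% lower). In HYP against WT, 13 of 25 were higher, 7 lower and 5 not called (80.0%, background 70.9%, of which 42.4% higher and 28.5% lower). In PCC against HYP, 9 of 14 were higher, 3 lower and 2 not called (85.7%, background 45.0%, of which 28.3% higher and 16.8% lower). The share called in PCC against WT lay near the background. The split of calls moved with the scaling. With counts scaled to the total of the listed genes, 18 were higher and 2 lower in PCC against WT, 16 higher and 1 lower in HYP against WT, and 7 higher and 1 lower in PCC against HYP. With recovered library totals 14 were higher and 2 lower in HYP against WT, and 9 higher and 1 lower in PCC against HYP. In PCC against WT, TMM factors over the genes of that table gave 13 higher and 9 lower, and DESeq2 gave 17 higher and 12 lower. The median log2 fold change of the peptide genes was 1.44, 1.36 and 1.28 in the 3 comparisons, against 0.45, -0.33 and 0.55 over all genes tested. Groups did not overlap for 17 of 31, 10 of 25 and 6 of 14 peptide genes, with a background of 63.6%, 55.7% and 53.4%. Comparisons share samples, so their values are set side by side and were not correlated. A gene low in both groups of a comparison was not tested, so a gene that passed the filter through its higher group alone had to differ. Where only 2 of the 3 tables hold a gene, the remaining comparison was tested in a joint fit of all 15 samples, in which 0 of 23 such edgeR tests of peptide genes were called and 4 had an unadjusted p under 0.05 (DESeq2 size factors also gave 0). The background of such calls was 5.49%, 1.37% and 0.0% of genes in the 3 comparisons. The authors had not called these genes in that comparison from the same counts. A missing call in the joint fit was therefore largely set in advance and is no separate evidence of an unchanged gene. With WT replicate 5 left out, 14 were higher and 7 lower in PCC, and 14 were higher and 6 lower in HYP. *Agtr2* was then gained in PCC against WT, at a log2 fold change of -1.29 (edgeR adjusted p = 0.00282), *Npy2r* and *Nppc* were gained in HYP against WT, and *Vipr2*, *Nts*, *Ramp1* and *Agrp* (PCC against WT) and *Npr1* and *Sstr3* (HYP against WT) were lost.

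**Figure D2:**
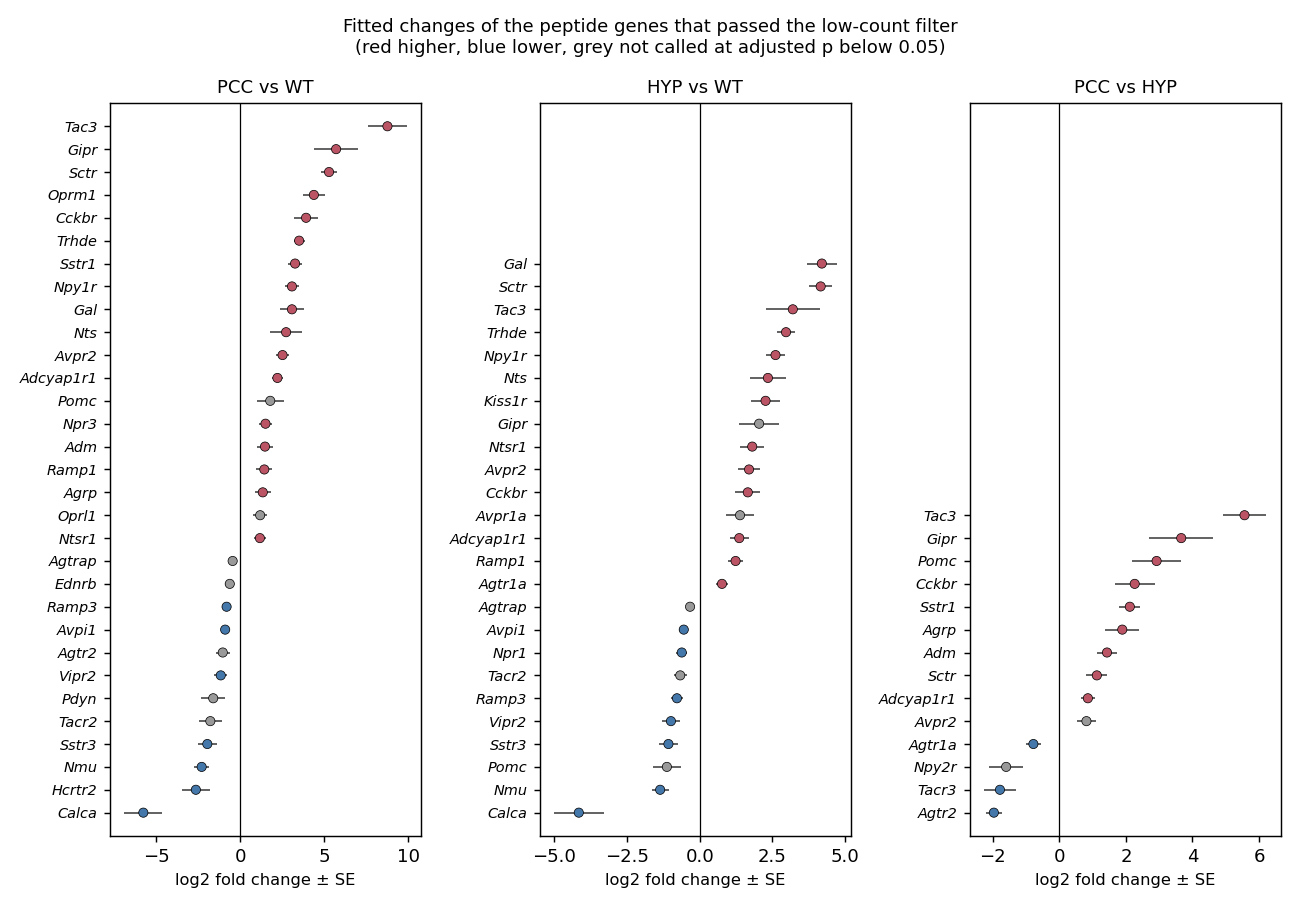
Log2 fold change with its standard error (x axis) for the peptide genes that passed the low-count filter in PCC vs WT (31 genes), HYP vs WT (25 genes) and PCC vs HYP (14 genes). Red points are called higher, blue points lower and grey points not called at an edgeR adjusted p under 0.05; *Tac3* lies highest in PCC vs WT and PCC vs HYP, and *Calca* lowest against WT.

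Mean levels were ordered from WT over HYP up to PCC for 15 of the 34 genes with counts in all samples (*Tac3*, *Sctr*, *Npy1r*, *Adcyap1r1*, *Sstr1*, *Cckbr*, *Gipr*, *Oprm1*, *Avpr2*, *Nts*, *Adm*, *Ramp1*, *Trhde*, *Crhr2*, *Edn1*) and were in the opposite order for 8 (*Calca*, *Nmu*, *Sstr3*, *Vipr2*, *Tacr2*, *Ramp3*, *Agtrap*, *Avpi1*). Highest in HYP were 6 means, with *Gal*, *Kiss1r*, *Npy2r* and *Ntsr1* lowest in WT and *Agtr1a* and *Agtr2* lowest in PCC. Lowest in HYP were 5 means (*Pomc*, *Agrp*, *Adm2*, *Trh*, *Oxtr*). This order describes means, and many neighbouring groups overlapped. On the FPKM scale of the authors, which divides by gene length and so allows genes to be compared, the highest mean levels in WT were those of *Adm* (56.4 ± 36.3 FPKM), *Npr1* (40.5 ± 6.45) and *Avpi1* (31.2 ± 6.23), whereas in HYP *Gal* came first (65.5 ± 19.2), followed by *Adm* (61.0 ± 15.8) and *Agtr2* (54.5 ± 17.5). In PCC, *Tac3* was first at 639.6 ± 413 FPKM (SD, n = 5), ahead of *Adm* at 177 ± 100.5 and *Adcyap1r1* at 47.6 ± 4.26. The ranges of mean ± SD overlapped between neighbours among these, except between *Adm* and *Adcyap1r1* in PCC, and no difference between genes was tested. These ranks hold only among the peptide genes analysed here, because peptide genes in none of the tables have no level here.

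Among the ligand precursors, the widest change was that of *Tac3*, which encodes neurokinin B, a tachykinin known from hypothalamic neurons that control gonadotropin release. *Tac3* (ENSRNOG00000004229) lies on chromosome 7 from 71023976 to 71030582 of Rn06, on the plus strand. Its levels in PCC were 541, 176, 462, 811 and 159 CPM, in HYP 15.9, 1.90, 12.4, 9.35 and 5.97 CPM, and in WT 0.190, 0.521, 0, 4.16 and 0.218 CPM. The 5 PCC samples lay above all others, and HYP overlapped WT only through WT replicate 4 and HYP replicate 2. This corresponded to a log2 fold change of 8.77 (SE 1.15, edgeR adjusted p = 0.000268) in PCC against WT, a 436-fold difference, and 5.56 (SE 0.66, edgeR adjusted p = 0.00182) in PCC against HYP. In HYP against WT it was 3.20 (SE 0.93, edgeR adjusted p = 0.0333), a call that was lost in 7 of the 10 fits that left out 1 sample (all but those without WT replicate 4, WT replicate 5 or HYP replicate 2). Without WT replicate 4 that value was 5.22. The receptor that neurokinin B prefers is encoded by *Tacr3*, which was at 1.82, 10.4, 6.56, 6.82 and 8.11 CPM in HYP and 2.69, 3.03, 1.42, 0.666 and 1.98 CPM in PCC. Its log2 fold change in PCC against HYP was -1.78 (SE 0.48, edgeR adjusted p = 0.0421), lost in 8 of the 10 fits (all but those without HYP replicate 1 or PCC replicate 1), and its level in WT was not analysed here. *Tacr2*, the receptor for the related neurokinin A, was at 44.6 ± 9.62 CPM in WT, 28.1 ± 9.67 CPM in HYP and 13.1 ± 10.7 CPM in PCC (SD, n = 5). The difference of PCC from WT was not called although no PCC sample reached a WT sample (log2 fold change -1.77, SE 0.66, edgeR adjusted p = 0.0652).

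*Gal* encodes galanin, a neuropeptide of sympathetic and chromaffin cells that is known to inhibit transmitter release. Its levels were 1.23, 1.37, 2.12, 2.24 and 8.21 CPM in WT, 66.3, 58.9, 32.5, 44.0 and 71.3 CPM in HYP and 56.1, 5.44, 24.2, 9.23 and 32.3 CPM in PCC. All HYP samples lay above all WT samples, while PCC spread widely, and PCC replicate 2 lay below WT replicate 5. The fold change on the log2 scale was 4.20 (SE 0.51, edgeR adjusted p = 0.000453) in HYP and 3.09 (SE 0.71, edgeR adjusted p = 0.00619) in PCC, both against WT and both kept in every fit that left out 1 sample. PCC against HYP gave a log2 fold change of -1.10, which was not called (edgeR adjusted p = 0.362, joint fit). The highest WT value was in replicate 5, the sample with the lowest chromaffin level, and without it the log2 fold change in PCC was 3.87.

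*Calca*, whose transcripts encode calcitonin and, by alternative splicing, the vasodilator CGRP, had the lowest log2 fold change among the precursors tested. Gene-level counts do not separate both products. Levels were 21.5, 26.1, 3.98, 6.40 and 0.363 CPM in WT, 0.251, 0.784, 0.858, 0.746 and 0.612 CPM in HYP and 0.0464, 0.337, 0, 0.0476 and 0.603 CPM in PCC. WT itself was heterogeneous, and WT replicate 5 lay inside the HYP and PCC ranges. On the log2 scale the fold change was -5.76 (SE 1.13, edgeR adjusted p = 0.00254) in PCC and -4.16 (SE 0.85, edgeR adjusted p = 0.00636) in HYP against WT. Both calls were kept in every fit that left out 1 sample. *Nmu*, the precursor of neuromedin U, fell as well, from 7.45, 9.80, 5.52, 11.4 and 4.36 CPM in WT to 3.26, 2.74, 2.57, 2.35 and 4.08 CPM in HYP and 3.06, 0.722, 1.65, 0.666 and 1.77 CPM in PCC. All WT samples lay above all HYP and PCC samples, and the log2 fold change was -2.29 (SE 0.45, edgeR adjusted p = 0.00258) in PCC and -1.36 (SE 0.29, edgeR adjusted p = 0.00791) in HYP. *Ramp3*, whose product turns a receptor of the calcitonin family towards adrenomedullin, fell with log2 fold changes of -0.80 in PCC and -0.78 in HYP (edgeR adjusted p = 0.0374 and 0.0184). The first was lost in 8 of the 10 fits (all but those without WT replicate 5 or PCC replicate 5). *Ramp1*, which directs the same receptor towards CGRP, was at 1.61, 2.08, 1.17, 1.25 and 1.52 CPM in WT, 3.83, 3.30, 2.27, 3.56 and 5.15 CPM in HYP and 2.23, 9.87, 2.27, 1.76 and 4.74 CPM in PCC. Its log2 fold change was 1.24 (SE 0.27, edgeR adjusted p = 0.00853) in HYP, where the groups did not overlap, and 1.44 (SE 0.48, edgeR adjusted p = 0.0388) in PCC. The latter call was lost in 6 of the 10 fits (those without WT replicate 1, 3, 4 or 5, or PCC replicate 2 or 5), and without PCC replicate 2 the value was 0.84.

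*Adm*, the precursor of the vasodilator adrenomedullin, had the highest mean FPKM in WT among the precursors analysed here. Its levels were 127, 124, 75.7, 59.6 and 16.3 CPM in WT, 85.6, 110.3, 63.0, 65.3 and 92.0 CPM in HYP and 208, 152, 175, 437 and 152 CPM in PCC. Every PCC sample exceeded every WT and HYP sample, with PCC replicate 4 far above the others. The log2 fold change was 1.43 (SE 0.31, edgeR adjusted p = 0.0198) against HYP and 1.48 (SE 0.49, edgeR adjusted p = 0.0375) against WT, lost in 2 of the 10 (without HYP replicate 3 or 4) and 5 of the 10 fits (without WT replicate 3 or 4, or PCC replicate 1, 3 or 4). HYP against WT gave a log2 fold change of 0.05, not called (joint fit, edgeR adjusted p = 1.00).

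*Pomc*, the precursor of corticotropin, melanocortins and beta-endorphin, was at 1.99, 2.51, 3.98, 10.7 and 2.03 CPM in WT, 2.89, 1.29, 1.41, 2.29 and 1.78 CPM in HYP and 7.33, 45.7, 3.74, 14.4 and 2.24 CPM in PCC. PCC was led by replicate 2 and overlapped both other groups. It exceeded HYP by a log2 fold change of 2.92 (SE 0.73, edgeR adjusted p = 0.0321), a call lost in 6 of the 10 fits (without any HYP replicate or PCC replicate 2). Without PCC replicate 2 the value was 1.84, and against WT it was 1.79 (SE 0.79, edgeR adjusted p = 0.122), which was not called. *Agrp*, which encodes an antagonist of melanocortin receptors, was at 0.807, 1.47, 1.17, 2.18 and 0.871 CPM in WT, 1.19, 1.01, 0.245, 0.918 and 1.07 CPM in HYP and 3.90, 5.25, 1.51, 4.76 and 1.16 CPM in PCC. PCC replicates 3 and 5 overlapped WT, and PCC replicate 5 also overlapped HYP. This corresponded to a log2 fold change of 1.35 (SE 0.47, edgeR adjusted p = 0.0485) against WT and 1.89 (SE 0.51, edgeR adjusted p = 0.0421) against HYP, lost in 7 of the 10 (all but those without WT replicate 4 or PCC replicate 3 or 5) and 8 of the 10 fits (all but those without PCC replicate 3 or 5).

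*Nts*, the precursor of neurotensin, was low in every sample, with 0.854, 0.0474, 0.106, 0.396 and 0.290 CPM in WT, 1.57, 0.784, 0.858, 2.70 and 2.91 CPM in HYP and 1.90, 7.89, 0.898, 0.618 and 0.258 CPM in PCC. A single sample, PCC replicate 2, stood out. The fold change on the log2 scale was 2.35 (SE 0.61, edgeR adjusted p = 0.0203) in HYP, lost in 3 of the 10 fits (without WT replicate 3 or HYP replicate 4 or 5), and 2.74 (SE 0.95, edgeR adjusted p = 0.0471) in PCC, lost in 6 of the 10 fits (without WT replicate 2, 3, 4 or 5, or PCC replicate 1 or 2). Without PCC replicate 2 the value in PCC was 1.41. *Pdyn*, the precursor of the dynorphins, was at 16.1, 13.6, 31.6, 30.2 and 73.6 CPM in WT and 15.8, 2.17, 8.89, 1.52 and 25.97 CPM in PCC, and the log2 fold change of -1.60 (SE 0.72, edgeR adjusted p = 0.133) was not called.

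The remaining 6 precursors fell under the low-count filter and were not tested in the comparisons that list them. *Edn1*, the precursor of the vasoconstrictor endothelin-1, had 5 reads over the 5 WT samples, 14 over HYP and 69 over PCC, and every PCC sample exceeded every WT and HYP sample. *Adm2*, the precursor of intermedin, had 5, 3 and 74 reads, and PCC overlapped both other groups. *Trh*, the precursor of thyrotropin-releasing hormone, had 67, 9 and 84 reads, *Nppc*, that of C-type natriuretic peptide, 86 in WT and 17 in HYP, *Kiss1*, that of kisspeptin, 42 in WT and 2 in PCC, and *Pnoc*, that of nociceptin, 8 in HYP and 70 in PCC.

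**Figure D3:**
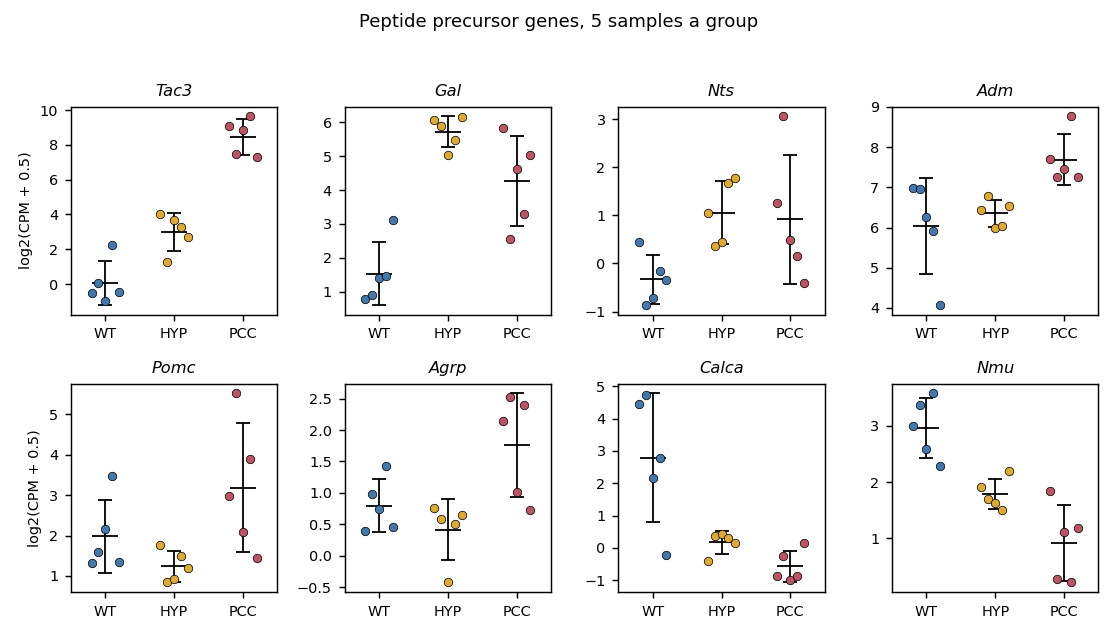
Levels of 8 peptide precursor genes as log2(CPM + 0.5) (y axis, a log scale) in the 5 WT, 5 HYP and 5 PCC samples. Points are samples and bars are the mean and SD of the log2 values; the PCC samples of *Tac3* and *Adm* lie above all others, and *Calca* and *Nmu* lie highest in WT apart from WT replicate 5 of *Calca*.

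Receptors of the secretin family couple to stimulatory G proteins and raise cyclic AMP, and of the 4 tested in PCC against WT 3 were higher (*Sctr*, *Adcyap1r1*, *Gipr*) and 1 was lower (*Vipr2*). *Sctr* (ENSRNOG00000049766, chromosome 13 from 36039283 to 36090530 of Rn06, plus strand) encodes the secretin receptor. Its levels were 1.80, 2.89, 1.49, 2.57 and 0.508 CPM in WT, 40.6, 46.1, 22.9, 23.7 and 35.0 CPM in HYP and 30.5, 107, 61.7, 78.1 and 90.3 CPM in PCC. No HYP or PCC sample came near the WT range, and PCC overlapped HYP through PCC replicate 1. On the log2 scale the fold change was 5.29 (SE 0.47, edgeR adjusted p = 4.51e-05) in PCC and 4.16 (SE 0.39, edgeR adjusted p = 0.000131) in HYP against WT, both kept in every fit that left out 1 sample. That of PCC against HYP was 1.13 (SE 0.32, edgeR adjusted p = 0.0492), lost in 9 of the 10 fits (all but the one without PCC replicate 1). *Adcyap1r1*, the receptor of PACAP, was at 72.7, 87.9, 67.9, 49.2 and 18.3 CPM in WT, 145, 167, 105, 145 and 199 CPM in HYP and 366, 268, 253, 252.4 and 243 CPM in PCC. The 3 groups did not overlap. Its log2 fold change was 2.22 (SE 0.35, edgeR adjusted p = 0.000694) in PCC against WT, 1.36 (SE 0.33, edgeR adjusted p = 0.0157) in HYP against WT and 0.86 (SE 0.21, edgeR adjusted p = 0.0284) in PCC against HYP. Only the last of these was lost when 1 sample was left out, in 6 of the 10 fits (without HYP replicate 1, 2, 3 or 4, or PCC replicate 2 or 3).

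*Gipr*, the receptor of the incretin GIP, was at 0.996, 0.474, 0.478, 5.61 and 0.145 CPM in WT, 6.59, 5.49, 5.70, 5.73 and 7.80 CPM in HYP and 5.62, 49.3, 24.0, 309 and 8.74 CPM in PCC. PCC replicate 4 exceeded the other PCC samples several times over, and WT replicate 4 reached the HYP range. The log2 fold change was 5.71 (SE 1.32, edgeR adjusted p = 0.00622) in PCC against WT, with a range of 3.85 to 7.18 when 1 sample was left out, and 3.66 (SE 0.96, edgeR adjusted p = 0.0374) against HYP. The latter was lost in 7 of the 10 fits (without any HYP replicate, or PCC replicate 2 or 4) and was 1.81 without PCC replicate 4. HYP against WT gave 2.05 (SE 0.69, edgeR adjusted p = 0.0641), which was not called. *Vipr2*, a receptor of VIP and PACAP, fell from 2.94, 3.13, 2.07, 2.11 and 2.18 CPM in WT to 1.57, 1.34, 0.490, 1.43 and 1.43 CPM in HYP and 0.557, 0.674, 0.804, 1.57 and 1.98 CPM in PCC. No HYP or PCC sample reached WT, and the log2 fold changes were -1.15 (SE 0.39, edgeR adjusted p = 0.0402) and -0.99 (SE 0.30, edgeR adjusted p = 0.0424). Each was lost in 8 of the 10 fits (all but those without PCC replicate 4 or 5, and without WT replicate 5 or HYP replicate 1). *Crhr2*, a receptor of the urocortins, had 3 reads over WT, 12 over HYP and 68 over PCC and was not tested.

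*Npy1r* encodes the Y1 receptor of neuropeptide Y, a peptide that chromaffin cells co-release with catecholamines. It was at 6.03, 6.06, 5.25, 5.81 and 1.52 CPM in WT, 29.1, 36.0, 21.4, 28.6 and 36.5 CPM in HYP and 42.3, 69.6, 45.6, 19.8 and 33.4 CPM in PCC. HYP and PCC lay above WT without overlap and overlapped each other. On the log2 scale the fold change was 3.09 (SE 0.41, edgeR adjusted p = 0.000279) in PCC and 2.61 (SE 0.32, edgeR adjusted p = 0.000482) in HYP, both kept in every fit that left out 1 sample. *Npy2r*, a presynaptic receptor of the same peptide, was at 0.140 ± 0.0614 CPM in WT, 1.26 ± 0.638 CPM in HYP and 0.411 ± 0.245 CPM in PCC. HYP lay above WT without overlap but was not tested because of low counts, and PCC against HYP was not called (-1.60, SE 0.51, edgeR adjusted p = 0.0750).

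Somatostatin receptors inhibit hormone secretion and are used for imaging and therapy of neuroendocrine tumours. Only *Sstr1* and *Sstr3* were analysed here, and they moved in opposite directions. The other subtypes were in none of the tables, so their levels are not known here. *Sstr1* was at 6.83, 14.1, 8.70, 7.12 and 1.74 CPM in WT, 23.5, 10.7, 8.03, 23 and 20.7 CPM in HYP and 44.7, 78.9, 86.7, 87.4 and 75.8 CPM in PCC. Every PCC sample exceeded every HYP and WT sample, with a log2 fold change of 3.27 (SE 0.43, edgeR adjusted p = 0.000275) against WT and 2.12 (SE 0.32, edgeR adjusted p = 0.00417) against HYP. Both calls were kept in every fit that left out 1 sample, whereas HYP did not pass the test against WT (1.15, SE 0.41, edgeR adjusted p = 0.0805, joint fit). *Sstr3* was at 6.97, 4.74, 3.77, 3.63 and 7.19 CPM in WT, 3.95, 1.79, 1.23, 2.75 and 2.75 CPM in HYP and 0.975, 0.481, 0.851, 0.476 and 3.96 CPM in PCC. It fell, at a log2 fold change of -1.95 (SE 0.57, edgeR adjusted p = 0.0218) in PCC and -1.07 (SE 0.33, edgeR adjusted p = 0.0439) in HYP, with PCC replicate 5 back in the WT range. The calls were lost in 2 of the 10 (without PCC replicate 1 or 3) and 8 of the 10 fits (all but those without WT replicate 4 or HYP replicate 1).

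*Cckbr*, the receptor of gastrin and cholecystokinin, was at 0.902, 2.37, 1.06, 1.19 and 0.363 CPM in WT, 5.58, 2.24, 2.08, 4.53 and 4.49 CPM in HYP and 30.8, 4.00, 14.2, 36.6 and 5.38 CPM in PCC. PCC replicates 1, 3 and 4 lay far above every HYP sample while replicates 2 and 5 lay within the HYP range. This corresponded to a log2 fold change of 3.93 (SE 0.69, edgeR adjusted p = 0.00135) in PCC against WT, 1.66 (SE 0.43, edgeR adjusted p = 0.0208) in HYP against WT and 2.26 (SE 0.59, edgeR adjusted p = 0.0382) in PCC against HYP. The last of these was lost in 8 of the 10 fits (all but those without PCC replicate 2 or 5), and the second in 3 of the 10 (without WT replicate 1 or 3, or HYP replicate 5). *Oprm1*, the mu opioid receptor, was low in WT at 0.190, 0.0947, 0, 0.198 and 0.0726 CPM. It was at 0.314, 2.18, 0.368, 1.03 and 1.63 CPM in HYP and 2.92, 2.21, 2.98, 3.52 and 0.646 CPM in PCC, without overlap with WT. The fold change on the log2 scale of PCC against WT was 4.39 (SE 0.63, edgeR adjusted p = 0.000443), kept in every fit that left out 1 sample. With all WT samples this low, *Oprm1* passed the low-count filter through PCC alone and so had to differ. Its p and its stability are therefore no separate support for a change. HYP against WT was not tested because of low counts. *Oprl1*, the nociceptin receptor, was at 1.24 ± 0.567 CPM in WT and 2.86 ± 0.935 CPM in PCC and was not called (1.19, SE 0.43, edgeR adjusted p = 0.0568).

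*Avpr2*, the vasopressin receptor that couples to cyclic AMP, was at 0.617, 0.331, 0.159, 0.330 and 0.145 CPM in WT, 0.941, 1.23, 1.16, 0.860 and 1.17 CPM in HYP and 2.23, 2.31, 1.56, 2.09 and 1.29 CPM in PCC. The groups did not overlap. Its log2 fold change was 2.53 (SE 0.41, edgeR adjusted p = 0.000849) in PCC and 1.70 (SE 0.37, edgeR adjusted p = 0.00817) in HYP against WT, and PCC against HYP was not called (0.82, SE 0.29, edgeR adjusted p = 0.102). *Avpr1a*, the vascular vasopressin receptor, was at 0.858 ± 0.374 CPM in WT and 2.28 ± 1.81 CPM in HYP and was not called (1.39, SE 0.49, edgeR adjusted p = 0.0774). *Oxtr*, the oxytocin receptor, had 119 reads over WT, 2 over HYP and 15 over PCC and was not tested. *Ntsr1*, the receptor with high affinity for neurotensin, was at 0.237, 0.616, 0.424, 0.264 and 0.581 CPM in WT, 2.32, 1.40, 0.551, 1.49 and 1.73 CPM in HYP and 0.789, 0.770, 0.993, 0.856 and 1.42 CPM in PCC. All HYP samples but replicate 3 lay above all WT samples, as did all PCC samples, and its log2 fold change was 1.81 (SE 0.41, edgeR adjusted p = 0.0101) in HYP and 1.18 (SE 0.37, edgeR adjusted p = 0.0291) in PCC. The PCC call was lost in 5 of the 10 fits (without WT replicate 1, 3 or 4, or PCC replicate 3 or 5). *Ntsr2* had 2 reads over WT and 31 over PCC. *Kiss1r*, the kisspeptin receptor, was at 0.474, 0.0947, 0.212, 0.264 and 0 CPM in WT and 0.753, 1.06, 0.919, 1.15 and 1.48 CPM in HYP, without overlap, at a log2 fold change of 2.27 (SE 0.49, edgeR adjusted p = 0.00872). *Kiss1r* passed the low-count filter through HYP alone and so had to differ in this comparison. In PCC its level was 0.918 ± 0.700 CPM (SD, n = 5), which overlapped WT and was not tested against it because of low counts.

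Angiotensin receptors were higher in HYP than in the tumours. *Agtr2*, the receptor subtype that is abundant in fetal tissue and in adrenal medulla, was at 122.8, 131, 73.1, 64.3 and 18.4 CPM in WT, 103, 209.8, 136, 141 and 194 CPM in HYP and 43.5, 34.4, 40.2, 29.4 and 52.9 CPM in PCC. No PCC sample reached a HYP sample, and the log2 fold change of PCC against HYP was -1.96 (SE 0.24, edgeR adjusted p = 0.00193), kept in every fit that left out 1 sample. Against WT it was -1.03 (SE 0.41, edgeR adjusted p = 0.0831) with all samples, and WT replicate 5 lay below every PCC sample, and HYP against WT gave 0.93 (SE 0.37, edgeR adjusted p = 0.135) in the joint fit. *Agtr1a*, the subtype that mediates vasoconstriction and aldosterone release, was at 15.4 ± 2.56 CPM in WT, 26.3 ± 7.32 CPM in HYP and 15.3 ± 1.72 CPM in PCC. This corresponded to a log2 fold change of 0.77 (SE 0.21, edgeR adjusted p = 0.0288) in HYP against WT and -0.78 (SE 0.22, edgeR adjusted p = 0.0480) in PCC against HYP, and the groups overlapped through HYP replicate 1. These calls were lost in 8 of the 10 (all but those without WT replicate 5 or HYP replicate 1) and 9 of the 10 fits (all but the one without HYP replicate 1). *Agtrap*, which binds the intracellular end of that receptor, was not called against WT in PCC (-0.44) or HYP (-0.33), but these calls depended on the processing. In PCC it was called lower with TMM over the listed genes, the size factors of the authors, the joint fit, DESeq2, adjustment over listed genes alone and without PCC replicate 4, and in HYP with the size factors of the authors, DESeq2 and adjustment over listed genes alone. With counts scaled to the total of the listed genes both values turned positive (0.0328 and 0.0927). Adjusted p-values of the edgeR and DESeq2 alternatives that kept all samples ran from 0.00419 to 1.00 in PCC and from 0.0289 to 1.00 in HYP.

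*Hcrtr2*, an orexin receptor, was at 123.1, 80.6, 69.4, 38.3 and 8.42 CPM in WT and 23.3, 3.03, 13.4, 0.476 and 11.4 CPM in PCC. It fell, at a log2 fold change of -2.63 (SE 0.85, edgeR adjusted p = 0.0332), and WT replicate 5 lay within the PCC range. The call was lost in 6 of the 10 fits (without WT replicate 1, 2 or 3, or PCC replicate 2, 3 or 5). The natriuretic peptide receptor *Npr3*, which clears these peptides, was at 0.617, 0.7103, 0.212, 0.396 and 0.654 CPM in WT and 0.789, 1.40, 1.51, 1.38 and 2.37 CPM in PCC without overlap, at a log2 fold change of 1.51 (SE 0.40, edgeR adjusted p = 0.0134). *Npr1*, the guanylyl cyclase receptor of the same peptides, was at 185 ± 48.9 CPM in WT and 121 ± 13.0 CPM in HYP and fell, at a log2 fold change of -0.61 (SE 0.18, edgeR adjusted p = 0.0386), lost in 8 of the 10 fits (all but those without WT replicate 1 or 2). *Ednrb*, an endothelin receptor, was at 25.2 ± 1.57 CPM in WT and 16.5 ± 7.198 CPM in PCC and was not called (-0.61, SE 0.28, edgeR adjusted p = 0.130). Low counts kept *Mc4r* (no read over WT and 54 over PCC, of which most lay in PCC replicate 4 at 2.09 CPM) and *Grpr* (21 over WT and 76 over HYP) out of the test. For *Mc4r*, a floor of 3 reads in each WT sample corresponds to 0.172 CPM, beside a mean of 0.513 ± 0.889 CPM in PCC (SD, n = 5). This floor covers counting error only.

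**Figure D4:**
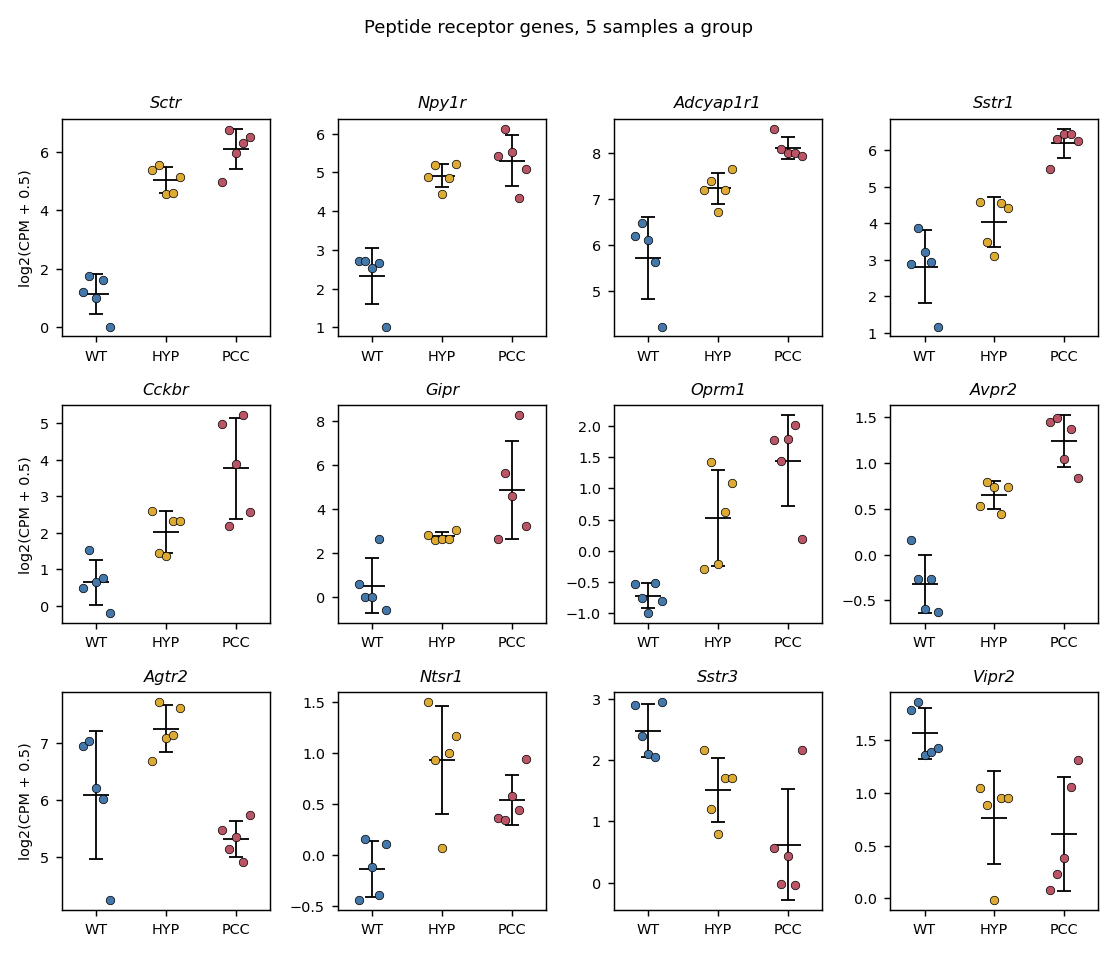
Levels of 12 peptide receptor genes as log2(CPM + 0.5) (y axis, a log scale) in the 5 WT, 5 HYP and 5 PCC samples. Points are samples and bars are the mean and SD of the log2 values; *Sctr* and *Npy1r* are already high in HYP, *Sstr1* lies apart in PCC, and *Agtr2* lies highest in HYP.

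*Trhde*, the ectoenzyme that inactivates thyrotropin-releasing hormone, was at 1.33, 1.28, 1.01, 1.78 and 0.581 CPM in WT, 9.91, 12.5, 6.25, 8.09 and 10.5 CPM in HYP and 13.2, 15.5, 15.4, 8.61 and 16.1 CPM in PCC. HYP and PCC lay above WT without overlap. The log2 fold change was 3.51 (SE 0.32, edgeR adjusted p = 5.12e-05) in PCC and 2.97 (SE 0.30, edgeR adjusted p = 0.000185) in HYP against WT, with ranges of 3.35 to 3.69 and 2.81 to 3.14 when 1 sample was left out. *Avpi1*, a gene induced by vasopressin, fell, at a log2 fold change of -0.89 (SE 0.22, edgeR adjusted p = 0.00842) in PCC and -0.55 (SE 0.15, edgeR adjusted p = 0.0248) in HYP, the latter lost in 6 of the 10 fits (without WT replicate 1, 2 or 3, or HYP replicate 2, 4 or 5).

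The peptide genes moved beside wider shifts in marker levels. Chromaffin markers were higher in PCC than in WT by 2.41 and in HYP by 1.21 on the log2 scale (exact permutation test, two-sided, p = 0.0079 and 0.0159, n = 5 and 5; 0.0079 is the smallest p this design allows). Neuronal markers were higher by 2.32 and 2.06, and cortex markers differed by -3.02 and -1.004 (two-sided exact permutation p between 0.0079 and 0.0238). The 7 chromaffin markers had log2 fold changes of 1.55 to 3.93 in PCC against WT, with a median of 2.08. Of the 17 peptide genes higher in PCC, 12 exceeded that median and 4 (*Tac3*, *Gipr*, *Sctr*, *Oprm1*) exceeded the highest marker. In HYP, where 4 of these markers were tested with log2 fold changes of 0.98 to 1.93, 7 of the 13 higher peptide genes exceeded the highest marker (*Gal*, *Kiss1r*, *Npy1r*, *Nts*, *Sctr*, *Tac3*, *Trhde*). In PCC against HYP, *Tac3* and *Gipr* exceeded the highest of 6 markers, at 2.95. Only peptide genes already called higher were set beside the markers, so these counts are no test of a rise beyond that of the markers. In HYP, *Th*, *Slc18a1* and *Phox2a* were not among the markers tested. *Oprm1* in PCC and *Kiss1r* in HYP had passed the low-count filter through their higher group alone. The part of cell composition in these differences was not tested.

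Other marker lists also moved. Between PCC and WT the sustentacular and Schwann list differed by 1.23 and the pericyte and smooth muscle list by 2.53, the endothelial list by -1.22 and the fibroblast list by 0.26 (two-sided exact permutation p = 0.0159, 0.0079, 0.0079 and 0.476). Between HYP and WT these differences were 1.11, 0.96, -0.70 and 0.87 (two-sided exact permutation p = 0.0159, 0.0238, 0.0079 and 0.0079). Their summed levels, in the order WT, HYP and PCC, were 74.3 to 210.3, 214 to 280.4 and 343 to 442 CPM for 8 sustentacular and Schwann genes, 472 to 603, 315 to 405 and 202 to 367 CPM for 6 endothelial genes, 37.0 to 65.2, 115 to 165 and 543 to 2281 CPM for 3 pericyte and smooth muscle genes, and 18.6 to 32.3, 44.0 to 57.0 and 28.9 to 87.2 CPM for 2 fibroblast genes. The leukocyte and adipocyte lists had no gene in the tables and the erythroid list had 1, so these cell types were not analysed here.

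WT replicate 5 was the lowest WT sample for 9 of the 17 genes that were higher in PCC and for 4 of the 7 that were lower. PCC replicates 2 and 4, with the lowest cortex levels, also had the lowest levels among PCC of *Gal* (5.44 and 9.23 CPM), *Hcrtr2* (3.03 and 0.476 CPM), *Pdyn* (2.17 and 1.52 CPM), *Tacr2* (3.27 and 0.761 CPM) and *Nmu* (0.722 and 0.666 CPM), and likewise of *Agtr2*, *Avpi1* and *Sstr3*. The same samples had the highest levels among PCC of *Gipr* (49.3 and 309 CPM), *Pomc* (45.7 and 14.4 CPM) and *Agrp* (5.25 and 4.76 CPM), and likewise of *Adm2*, *Crhr2*, *Ntsr2* and *Trh*. HYP replicate 3, which had the lowest chromaffin level of its group (0.66, against 1.17 to 1.52 in the others), was the lowest HYP sample for 8 of the 13 genes higher in HYP. These samples were noticed after the values were seen, and the part of tissue composition was not tested.

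Peptides act only once their precursors have been cut, and the enzymes for this step were called in both directions. Of 8 processing enzymes tested in PCC against WT, 3 were higher and 3 lower, and the median change was 0.97 on the log2 scale, beside 0.45 over all genes. The background of 81.4% called, 46.6% higher and 34.7% lower, holds for these and the following lists in PCC against WT, as do 70.9% in HYP against WT and 45.0% in PCC against HYP. *Pcsk6* rose by a log2 fold change of 2.495 (edgeR adjusted p = 0.00305), *Scg5*, the chaperone of a prohormone convertase, by 1.74 (edgeR adjusted p = 0.00952), and *Cpe*, the carboxypeptidase that trims the cut peptides, by 1.42 (edgeR adjusted p = 0.0248). *Pcsk5* fell, at a log2 fold change of -3.13 (edgeR adjusted p = 0.00107) in PCC and of -0.84 (edgeR adjusted p = 0.0366) in HYP. *Qpct*, which forms the blocked N terminus of many peptides, rose in HYP by a log2 fold change of 2.58 (edgeR adjusted p = 0.000344). In HYP against WT, 1 of 3 such enzymes was higher and 2 were lower, and in PCC against HYP 2 of 4 were higher and 1 was lower. Of 8 peptide-degrading enzymes, 3 were higher (*Trhde* again, *Ace*, the converting enzyme of angiotensin, at 1.56, and *Thop1* at 0.68) and 3 were lower in PCC (*Mme*, neprilysin, at -2.60, *Dpp4*, which inactivates incretins, at -2.46, and *Prcp* at -1.19). In HYP against WT, 3 of 4 were higher and 1 was lower, and in PCC against HYP none of 3 was higher and 1 was lower. All genes of the granin list that were tested against WT were higher (3 of 3 in PCC, 2 of 2 in HYP). In PCC these were *Gnas*, whose gene-level count mainly measures a G protein subunit and which the signalling list also holds, at 1.51, and the granule proteins *Scg2* by a log2 fold change of 2.31 (edgeR adjusted p = 0.00219) and *Scg3* by 2.21 (edgeR adjusted p = 0.00157), whereas in PCC against HYP *Scg2* at 0.91 (edgeR adjusted p = 0.111) and *Scg3* at 0.89 (edgeR adjusted p = 0.0684) were not called.

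Peptide hormones and receptors beyond the 48 genes were represented by few genes. In PCC against WT, 3 of 6 were higher, namely *Prokr1*, a prokineticin receptor, at a log2 fold change of 6.48 (edgeR adjusted p = 0.000156), *Prlh*, the precursor of prolactin-releasing peptide, at 4.55 (edgeR adjusted p = 0.00335), and *Apln*, the precursor of apelin, at 3.34 (edgeR adjusted p = 0.00143). The 3 lower genes were *Qrfpr* (-3.28), *Prlr* (-2.93) and *Gnrhr* (-2.48). In HYP, *Mas1*, the receptor of angiotensin-(1-7), rose with *Apln* and *Gcgr* (3 of 5 tested, none lower), by a log2 fold change of 4.11 (edgeR adjusted p = 0.000185), and fell in PCC against HYP, at -2.51 (edgeR adjusted p = 0.00735), where 3 of 7 genes were higher and 3 lower. Signalling components downstream of such receptors were called in 17 of 19 cases in PCC against WT, 11 higher and 6 lower, near the background of 81.4%. *Rgs4*, which shortens signalling by inhibitory G proteins, rose by a log2 fold change of 4.51 (edgeR adjusted p = 4.39e-05), and the cyclase gene *Adcy1* by 2.87 (edgeR adjusted p = 0.000264). *Rgs2* fell, at a log2 fold change of -4.59 (edgeR adjusted p = 0.00340), and *Crem*, a transcription factor that responds to cyclic AMP, fell at -4.15 (edgeR adjusted p = 9.65e-05). In HYP against WT, 7 of 9 were higher and 2 lower, and in PCC against HYP 1 of 7 was higher (*Rgs4*) and 1 lower (*Crem*).

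Promoter sequences were taken from RefSeq (build GRCr8, 250 bases before to 50 after the annotated start), where 43 of the 48 genes had an entry and *Gipr*, *Grpr*, *Oprl1*, *Pnoc* and *Tac3* had none. The cyclic AMP response element TGACGTCA was found in 1 of 43 (*Avpi1*), against 1.91% of 27457 promoters, on both strands. The shorter core TGACG, which the full element contains, was found in 18 of 43 (41.9%) against 21.96% of all promoters, among them those of *Gal*, *Nts*, *Npy1r* and *Sstr1*, which rose in PCC, and of *Calca* and *Nmu*, which fell. The core ACGTG of the hypoxia response element was found in 8 of 43 (18.6%) against 19.7%, and CACGTG, an E-box that contains it, in 2 of 43 (*Agtrap*, *Nmu*) against 6.65%. The background promoters were not matched for gene type or base composition, and no share was tested against them. A match describes letters in this window and not a bound site. The windows of 60 bases around this core are shown for 4 precursors and 2 receptors on which the results turn, to set genes that rose beside genes that fell, 5′ to 3′ on the strand of the gene, with TGACG or its reverse complement CGTCA in capitals.
Gal: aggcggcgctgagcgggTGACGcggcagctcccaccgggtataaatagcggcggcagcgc
Nts: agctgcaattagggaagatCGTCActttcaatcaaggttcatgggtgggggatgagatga
Npy1r: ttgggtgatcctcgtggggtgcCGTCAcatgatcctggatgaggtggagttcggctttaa
Sstr1: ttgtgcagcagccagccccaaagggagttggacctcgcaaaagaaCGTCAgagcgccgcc
Calca: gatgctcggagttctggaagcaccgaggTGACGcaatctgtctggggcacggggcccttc
Nmu: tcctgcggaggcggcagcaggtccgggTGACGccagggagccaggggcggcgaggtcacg
The windows lie at chr1:210084593-210084652 (minus strand) for *Gal*, chr7:39461019-39461078 (minus strand) for *Nts*, chr16:27813488-27813547 (minus strand) for *Npy1r*, chr6:81567423-81567482 (plus strand) for *Sstr1*, chr1:178317610-178317669 (minus strand) for *Calca* and chr14:32198813-32198872 (plus strand) for *Nmu* of GRCr8. The same 5 letters thus occur upstream of genes that rose and of genes that fell.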

How the data were processed

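Poly(A) RNA of macrodissected adrenal medulla, 1 animal per sample, had been sequenced in paired ends. According to the submitters' notes, the authors aligned reads with HISAT2 (2.0.5) to Rn06 and obtained raw counts with featureCounts (1.5.0-p3). The 3 deposited tables, 1 per pairwise comparison, hold these counts, the normalized signal of the authors (counts divided by size factors), their FPKM values, gene annotation, and the log2 fold changes and p-values of their own comparisons. Each lists only genes the authors had called. The deposited log2 fold changes were not used, and the deposited p-values served only to recover how many genes the authors had tested (18790, 18057 and 17454, of which 7683, 4406 and 3360 are listed for PCC against WT, HYP against WT and PCC against HYP).

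Counts were tested with edgeR (4.0.16) glmQLFit and glmQLFTest, 1 fit per table with the samples of both groups and no covariate, after filterByExpr. Library totals were recovered from counts, FPKM and gene length, and multiplied by TMM factors over the 5492 genes with counts in all 15 samples. Benjamini-Hochberg adjustment ran over as many genes as they had tested, with genes not listed taken as showing no difference. Adjusted p-values are upper bounds with respect to this step alone. TMM factors and dispersions came from listed genes only, which the authors had called different, and other scalings gave larger adjusted p-values for some genes. Standard errors are the fold change divided by the square root of F. Genes absent from 1 table were tested there in a joint fit of the 3 groups. Levels of marker lists are medians of log2(CPM + 0.5), centred on WT, compared by two-sided exact permutation over all splits. The test was checked on simulated data in which few genes changed and the scaling was known. That check does not cover the choice of scaling or data in which most genes differ. One marker of the planned chromaffin list is not reported here and was left out of its values. Counts of the same gene did not differ between tables, and no pair of samples agreed within sampling noise.

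Each gene of the symbol list is named. Per-sample values are given for those called with a mean of at least 1 CPM and a fold of at least 2, up to 30 by absolute log2 fold change, and for a few others. Genes of the pathway lists are a selection of those called. The genes and lists were chosen with earlier results of these data known. Alternatives were 4 other scalings, other low-count filters, adjustment over listed genes alone, a replicate block, a joint fit, DESeq2 (1.42.0), a pseudocount of 0.1 and leaving out each sample. The replicate numbers did not pair the samples. According to the authors, the PCC samples comprised both pheochromocytomas and advanced pheochromocytomas. Advanced tumours are not separated by the labels and were not used as a group, so PCC mixes both stages. Python 3.11.15, pandas 2.3.3, scipy 1.17.1 and matplotlib 3.10.9 were used beside R 4.3.3.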

Additional observations from a re-analysis of the deposited data

Results flagged for a closer look

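Single samples stood apart from the other 4 of their group, by Dixon's test on log2(CPM + 0.5) with a critical ratio of 0.71, in 12 of 119 combinations of gene and group. Chance gives about 1 in 20. WT replicate 5 was the sample in 4 of them. It was highest for *Gal* (8.21 CPM, nearest sample 2.24) and *Tacr2* (61.6 CPM, nearest 41.9), and lowest for *Npy1r* (1.52 CPM, nearest 5.25) and *Oprl1* (0.290 CPM, nearest 1.23). PCC replicate 1 was highest for *Adcyap1r1* (366 CPM, nearest 268) and lowest for *Sstr1* (44.7 CPM, nearest 75.8) and *Oprl1* (1.25 CPM, nearest 2.94). PCC replicate 4 was highest for *Mc4r* (2.09 CPM, nearest 0.236), and PCC replicate 5 for *Sstr3* (3.96 CPM, nearest 0.975). In HYP, replicate 3 was lowest for *Agrp* (0.245 CPM, nearest 0.918) and *Vipr2* (0.490 CPM, nearest 1.34), and replicate 1 was lowest for *Tacr3* (1.82 CPM, nearest 6.56).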

How the results depend on the processing

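Of the calls of peptide genes, 15 of 24 in PCC against WT, 12 of 20 in HYP against WT and 3 of 12 in PCC against HYP were kept in all 10 fits that left out 1 sample. Leaving out 1 sample gave 16 to 23 calls in PCC against WT (12 to 16 higher, 4 to 8 lower), 12 to 22 in HYP against WT (9 to 14 higher, 3 to 8 lower) and 3 to 10 in PCC against HYP (2 to 8 higher, 1 to 3 lower), and 0 to 2 calls among genes outside a table. The 7 lower genes of PCC against WT became 2 with the total of listed counts, and 12 with DESeq2 or with adjustment over listed genes alone. The 7 lower genes of HYP against WT became 2 with recovered library totals, 1 with the total of listed counts, 4 with all 3 groups in one fit and 3 with a fold of at least 2. The 3 lower genes of PCC against HYP became 1 with recovered totals or the total of listed counts, and with recovered totals 1 gene outside a table was called. *Agtrap* turned positive with the total of listed counts, at 0.0328 in PCC and 0.0927 in HYP. That scaling moved the median of all genes by 0.46, 0.42 and 0.03 in the 3 comparisons, recovered totals by 0.25, 0.14 and 0.10, and DESeq2 by -0.13, -0.01 and -0.29. Same-numbered samples did not deviate together (r from -0.14 to 0.21, -0.12 to 0.28 and -0.25 to 0.26 in the same order of comparisons), and with the replicate block 20, 15 and 3 genes were called (13 higher and 7 lower, 12 and 3, 2 and 1). Other than where stated, the cause was not tested. Genes with few reads could not be tested at this depth, and genes in none of the tables were not analysed here.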
